A study of Saccharomyces cerevisiae with 18 samples.

Results

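The genes of leucine, isoleucine and valine synthesis were followed in RNA sequencing of budding yeast, as 10 members of 7126 genes: LEU1, LEU2, LEU3, LEU4, LEU9, BAT1, BAT2, ILV2, ILV3 and ILV5. They were taken by gene name, and all 10 had values in all 18 libraries. Their coding sequences are uninterrupted, and positions are those of the R64 build. The set was chosen on the level of LEU2 in these libraries, so LEU2 is described here without any test, and counts of members with a changed level are over the other 9. The study replaced both chromosomal copies of the ribosomal protein gene uL30 (RPL7A and RPL7B) by a plasmid-borne copy. It compared 3 strains, WT, R28P-30A and R28P-30B, with 2 numbered cultures of each and 3 libraries under each number. Poly(A) RNA was sequenced as a total extract, as a light fraction of the sucrose gradient (free subunits and monosomes) and as a heavy one (4 or more ribosomes). Whether the total extract and the gradient fractions of a number came from the same culture is not stated. The word culture below stands for that number. Cells grew exponentially at 30 °C in a synthetic medium. The study lists leucine, isoleucine and valine in that medium, but whether the plasmid strains were grown without leucine is not stated.

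All 3 strains are listed as haploid and of the BY background, with deletions of HIS3, LEU2, LYS2 and URA3. In addition, the strain list gives both plasmid strains a chromosomal RPL7A replaced by the URA3 marker, an RPL7B replaced by a KMX marker, and a plasmid with LEU2 and the cDNA of uL30A or uL30B behind the RPS28A promoter and before the ADH1 terminator. By that list, LEU2 is the plasmid's selection marker and is carried by the plasmid alone. The list names several clones of each plasmid strain, and the labels do not say which was sequenced. The 4 MATa marker genes lay between 148 and 1465 CPM, the reads scaled to the library total, in every library, and the 3 MATalpha marker genes between 0.163 and 23.3 CPM.

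Library depth ran from 17373839 to 31525927 reads, with a median of 26575904. HIS3 and LYS2 had 0 reads in all 18 libraries. URA3 had 3 reads in the 6 WT libraries and 47409 in the 6 R28P-30B libraries. The libraries labelled R28P-30A did not match that genotype, with 11 URA3 reads in 6 libraries and RPL7B at 217 and 201 CPM in the total extracts, against 278 and 272 in WT and 3255 and 3471 in R28P-30B. The intron-borne snoRNAs of the RPL7 genes, snR39 and snR59, gave 2596 and 631 reads in WT, 2616 and 563 in the libraries labelled R28P-30A, and 1 and 1 in R28P-30B. Every direction given below for the libraries labelled R28P-30A therefore rests on the label, and where LEU2 lies in those cells was not tested. Between WT and R28P-30B, the plasmid's LEU2, the URA3 marker, the exchanged uL30 gene and both snoRNAs differed together. By the strain list the KMX marker differed with them, and their parts cannot be told apart. R28P-30B and the libraries labelled R28P-30A likewise differed together in LEU2, URA3, RPL7A, RPL7B and both snoRNAs. RPL7A was at 1394 and 1336 CPM in the WT total extracts, 1877 and 1730 in those labelled R28P-30A and 3.67 and 3.86 in R28P-30B. These parts cannot be told apart either, and the name plasmid strains below follows the labels.

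In yeast, valine and isoleucine are built in mitochondria by a shared set of enzymes, and leucine branches off from the last valine intermediate. Ilv2, Ilv5 and Ilv3 act in turn on the common path, Leu4 and Leu9 make α-isopropylmalate, Leu1 and Leu2 carry it on towards leucine, and the aminotransferases Bat1 (mitochondrial) and Bat2 (cytosolic) complete all 3 amino acids. The transcription factor Leu3 binds a short inverted repeat before several of these genes and activates them when α-isopropylmalate is present, so that LEU3-regulated transcription follows the state of the pathway, while Gcn4 drives many amino acid genes under starvation.

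Exact matches to the Leu3 repeat are shown because they mark the members that carry it. The repeat CCGGNNCCGG (its own reverse complement, so the same on both strands) was searched in the 500 nt before each start codon of the R64 reference genome. It was present in 16 of 5986 such windows (0.267%), among them those of 5 members, LEU1, LEU2, BAT1, ILV2 and ILV5, and of GDH1, the NADP-dependent glutamate dehydrogenase. The sequences below run 5′ to 3′ on the gene's own strand, with the repeat in capitals.
LEU1: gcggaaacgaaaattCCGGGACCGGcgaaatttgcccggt
LEU2: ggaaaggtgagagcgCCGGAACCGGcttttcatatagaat
BAT1: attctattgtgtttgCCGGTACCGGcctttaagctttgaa
ILV2: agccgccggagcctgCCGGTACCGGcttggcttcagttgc
ILV5: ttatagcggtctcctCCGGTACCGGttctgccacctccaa
GDH1: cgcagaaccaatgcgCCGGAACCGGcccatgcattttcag

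These stretches lie at chrVII:478845-478884 (minus strand) for LEU1, chrIII:91111-91150 (plus) for LEU2, chrVIII:517370-517409 (plus) for BAT1, chrXIII:483601-483640 (plus) for ILV2, chrXII:839606-839645 (minus) for ILV5 and chrXV:1043422-1043461 (minus) for GDH1. BAT1, ILV2 and ILV5 shared the same 10 bases, and LEU2 shared its 10 with GDH1. The repeat ended 138 nt before the start codon of BAT1, 189 before that of LEU2, 208 before that of LEU1, 368 before that of ILV5 and 459 before that of ILV2. The LEU2 stretch is that of the reference chromosome, which these strains lack by the strain list, and the plasmid's own sequence was not used here. No match was found in these windows for LEU3, LEU4, LEU9, BAT2 or ILV3. OAC1, MAE1 and ALD5, listed below among the further known targets of Leu3, had no match either. An exact match therefore does not separate Leu3 targets from other genes. The core of the Gcn4 site, TGACTC on either strand, was in 758 windows (12.7%) and in those of LEU1, LEU3, LEU4, LEU9, BAT1, ILV3 and ILV5. A match describes the letters of the window only.

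LEU2 (YCL018W, chrIII:91324-92418) encodes β-isopropylmalate dehydrogenase. In WT it gave 1 and 1 reads in the 2 total extracts, 0 and 4 in the light fractions and 0 and 0 in the heavy fractions, and a count of 0 allowed up to 0.145 CPM in the shallowest of these libraries. In the libraries labelled R28P-30A it stood at 91.9 and 77.1 CPM in the total extracts, 94.0 and 92.0 in the light and 88.2 and 80.6 in the heavy fractions. R28P-30B had 613 and 639 CPM in the total extracts, 779 and 824 in the light and 546 and 560.5 in the heavy fractions. The 3 strains did not overlap in any fraction, and the order was the same in all 3 fractions. These are the values on which the set was chosen.

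**Figure D1:**
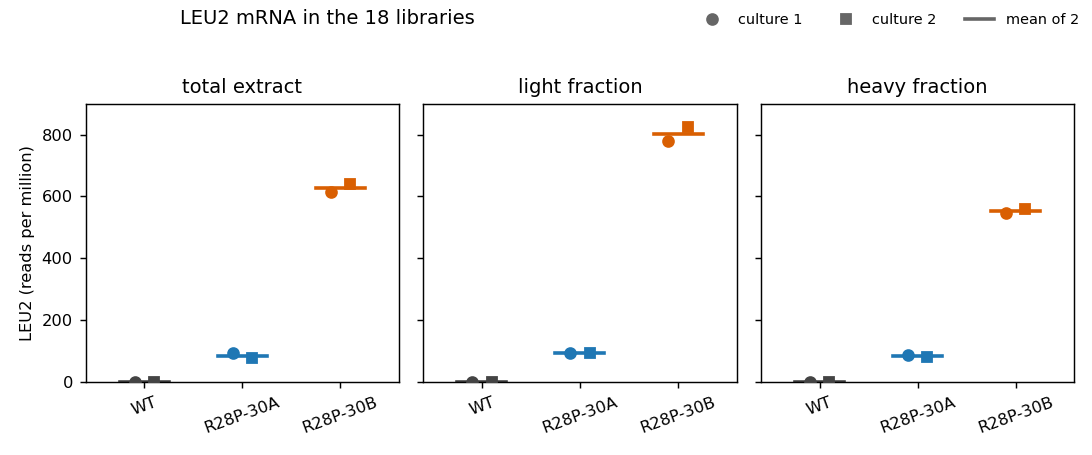
LEU2 in CPM in the total extract, light and heavy fractions of the 3 strains, with a point for each of the 2 cultures and a bar for their mean. WT lies at the axis, the libraries labelled R28P-30A lie between 77.1 and 94.0 CPM, and R28P-30B lies between 546 and 824 CPM.

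The mean LEU2 level of R28P-30B was 7.41 times that of the libraries labelled R28P-30A in the total extract, 8.615 times in the light and 6.555 times in the heavy fraction. Per coding length it was 66.8 ± 7.80 TPM (transcript shares corrected for coding length; SD, n = 2) in the total extracts labelled R28P-30A and 496.0 ± 19.5 TPM (SD, n = 2) in R28P-30B. At that level LEU2 stood between ILV5 and ILV3 in R28P-30B, and between LEU1 and LEU3 in the cultures labelled R28P-30A. The heavy over light ratio of LEU2 was 0.939 and 0.876 in the cultures labelled R28P-30A and 0.7015 and 0.680 in R28P-30B. LEU2 was thus less weighted towards heavy polysomes in R28P-30B, and whether that goes with its level was not tested.

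On the reference chromosome LEU2 is preceded, 351 nt upstream and on the same strand, by SUP53 (chrIII:90859-90972), a leucine tRNA gene. SUP53 had 0 reads in all 6 WT libraries. It gave 30 and 33 reads in the total extracts labelled R28P-30A and 171 and 130 in those of R28P-30B, and 18 and 37 against 430 and 445 in the light fractions. SUP53 thus followed the order of LEU2 across the strains, at a small fraction of its level. The next genes after LEU2, NFS1 and DCC1, differed little, with 139 to 150.5 CPM and 52.0 to 60.1 CPM over the 6 total extracts. On the other side, the transposon reading frames YCL020W and YCL019W had 0 and at most 5 reads in any library.

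In the WT total extract the members spanned a wide range. ILV5 was highest, at 1226 ± 71.0 TPM (SD, n = 2), above 97.0% of the 5686 genes tested, whose median was 57.65 TPM. ILV3 (289 ± 2.93 TPM) and BAT1 (277 ± 11.2 TPM) came next and were followed by ILV2 (185.5 ± 12.02 TPM), BAT2 (164 ± 3.52 TPM) and LEU4 (151 ± 2.50 TPM). LEU9 stood at 118 ± 4.19 TPM and LEU1 at 109.6 ± 8.32 TPM, and these neighbours were the only ones whose cultures overlapped. LEU3, the regulator, was lowest among the 9 at 44.1 ± 4.12 TPM. The summed level of the 9 was 2480 and 2649 TPM in WT, 2439 and 2495 in the cultures labelled R28P-30A and 2322 and 2401 in R28P-30B.

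The total extracts were compared to ask which enzymes changed in level between strains. In R28P-30B against WT, 5 of the 9 members changed, with LEU1, BAT1 and ILV3 lower and LEU4 and BAT2 higher. Among all genes tested, 10.7% were called higher and 13.5% lower in this comparison. The split was 609 higher and 768 lower, or 828 and 678 once each library was centred on its median gene, and counts of 2 higher and 3 lower members were the same either way. The median log2 difference was -0.03 over the 9 and -0.05 over all genes. All calls are at a Benjamini-Hochberg adjusted p under 0.05 from limma on log2(TPM + 1) over all 5686 genes, which understates changes of low genes. In bulk cultures, fewer cells with a message and less message per cell cannot be told apart.

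On the common path, levels moved little. ILV2 (YMR108W, chrXIII:484084-486147), the catalytic subunit of acetolactate synthase, gave 177 and 194 TPM in WT, 184 and 196.5 in the cultures labelled R28P-30A and 174.5 and 195 in R28P-30B. ILV5 (YLR355C, chrXII:838066-839253), the reductoisomerase, gave 1176 and 1276, 1157 and 1140, and 1109 and 1115 TPM in the same order. Neither was called in any of the 3 total extract comparisons, and the ILV2 cultures of all 3 strains overlapped. ILV3 (YJR016C, chrX:464451-466208), the dihydroxyacid dehydratase, gave 287 and 291.5 TPM in WT, 277 and 281 in the cultures labelled R28P-30A and 238 and 251.5 in R28P-30B, without overlap. It was lower in R28P-30B than in WT by a log2 difference of -0.24 (SE 0.062, limma adjusted p = 0.00643). Without R28P-30B replicate 1 that difference was -0.20 with a limma adjusted p of 0.1275.

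At the branch to leucine, the 2 α-isopropylmalate synthases differed. LEU4 (YNL104C, chrXIV:424895-426754) gave 149 and 152.5 TPM in WT, 150.3 and 191 in the cultures labelled R28P-30A and 175 and 207.5 in R28P-30B. It was higher in R28P-30B than in WT by 0.335 on the log2 scale (SE 0.091, limma adjusted p = 0.00958). LEU9 (YOR108W, chrXV:523027-524841), its 79.3% identical partner, gave 115 and 120.5 TPM in WT, 116 and 114.5 in the cultures labelled R28P-30A and 120.4 and 120.1 in R28P-30B, and was called in no comparison. The LEU4 call was lost without WT replicate 1 (0.32, limma adjusted p = 0.133), WT replicate 2 (0.35, 0.1495) or R28P-30B replicate 2 (0.21, 0.126). The 2 cultures labelled R28P-30A were as far apart as the strains for LEU4, and without replicate 1 of them LEU4 was called higher than in WT (0.34, limma adjusted p = 0.00433).

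LEU1 (YGL009C, chrVII:476313-478652), the isopropylmalate isomerase that works just before Leu2, showed the widest difference among the 9. It gave 104 and 115.5 TPM in WT, 91.8 and 89.5 in the cultures labelled R28P-30A and 52.8 and 57.3 in R28P-30B, with no overlap between strains. The log2 difference of R28P-30B to WT was -0.98 (SE 0.074, limma adjusted p = 3.231e-09), a level of 0.507 times that of WT. It stayed between -1.06 and -0.90 and past the threshold under all 13 alternatives. In the polysome fractions LEU1 also stood lowest in R28P-30B, at 96.6 and 96.5 CPM in the light and 150.2 and 167 in the heavy fraction, where WT had 235 and 237 and then 277 and 314. LEU1 thus had its lowest level in the strain with the highest LEU2 level and its highest level in the strain without LEU2. That LEU2 order is the one on which the set was chosen, and no link between LEU1 and LEU2 is read from it.

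The final transamination showed opposite changes of its 2 enzymes. BAT1 (YHR208W, chrVIII:517532-518713), the mitochondrial form, gave 269 and 285 TPM in WT, 249 and 243 in the cultures labelled R28P-30A and 180.4 and 198 in R28P-30B. BAT2 (YJR148W, chrX:705744-706874), the cytosolic form, gave 162 and 167, 174 and 195, and 231 and 213 TPM in the same order. Neither gene's strains overlapped. In R28P-30B against WT, BAT1 was lower by a log2 difference of -0.55 (SE 0.066, limma adjusted p = 2.369e-06) and BAT2 higher by 0.43 (SE 0.069, limma adjusted p = 9.12e-05), and both calls held under all 13 alternatives.

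LEU3 (YLR451W, chrXII:1036093-1038753), the regulator, gave 41.2 and 47.0 TPM in WT, 41.2 and 45.3 in the cultures labelled R28P-30A and 42.4 and 43.9 in R28P-30B, and its strains overlapped throughout. Its log2 difference between R28P-30B and WT was -0.03 (SE 0.083, limma adjusted p = 0.841).

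**Figure D2:**
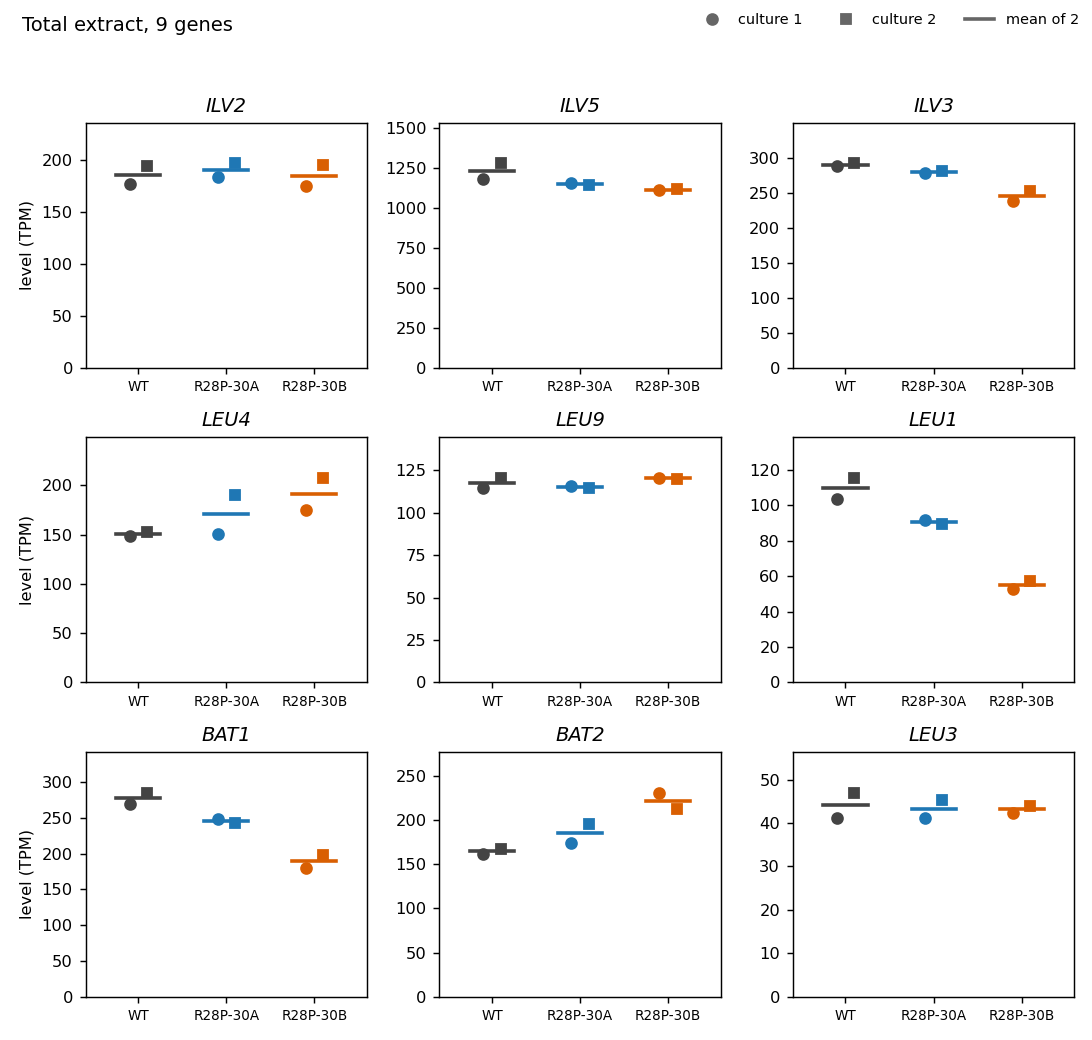
Level of the 9 genes other than LEU2 in the total extracts, in TPM by coding length, with a point per culture and a bar for the mean of 2; each panel starts at 0. LEU1 lies at 104 and 115.5 TPM in WT and at 52.8 and 57.3 in R28P-30B, while LEU3 stays between 41.2 and 47.0 in all 3 strains.

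Against the cultures labelled R28P-30A, R28P-30B differed in 4 of the 9 members, with LEU1, BAT1 and ILV3 lower and BAT2 higher. Over all genes, 5.98% were called higher and 6.24% lower, or 340 and 355 genes, against 430 and 319 after centring. LEU1 differed by -0.71 on the log2 scale (SE 0.074, limma adjusted p = 7.947e-07) and BAT1 by -0.38 (SE 0.066, limma adjusted p = 0.000443). BAT2 differed by 0.26 (SE 0.069, limma adjusted p = 0.0148), a call that was lost without replicate 1 of the cultures labelled R28P-30A (0.18, limma adjusted p = 0.167) and without R28P-30B replicate 1 (0.21, 0.197). The ILV3 difference of -0.19 (SE 0.062, limma adjusted p = 0.0478) was past the threshold in 2 of 12 alternatives only, and its limma adjusted p rose to 0.431 without R28P-30B replicate 1. LEU4 was called without replicate 2 of the cultures labelled R28P-30A (0.34, limma adjusted p = 0.00212) or without R28P-30B replicate 1 (0.29, 0.0270).

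The cultures labelled R28P-30A against WT gave no call among the 9 members by limma or edgeR and 1 by DESeq2, LEU1. Over all genes 0.879% were called higher and 0.193% lower by limma, or 50 and 11 genes, against 1 and 0 after centring. At an unadjusted p under 0.05, limma marked 3 of the 9, LEU1 and BAT1 lower and BAT2 higher, where 8.79% of all genes were marked. LEU1 differed by -0.27 (SE 0.074, limma adjusted p = 0.0913), BAT1 by -0.17 (SE 0.066, 0.363) and BAT2 by 0.165 (SE 0.069, 0.4295). Leaving out either R28P-30B culture from the shared fit brought the limma adjusted p of LEU1 to 0.0462 and 0.0469. With the replicate number as a block, limma called 126 genes in place of 61, among them LEU1 (-0.27, limma adjusted p = 0.0378), and between the plasmid strains 1074 in place of 695. In LEU1, BAT1 and BAT2 the cultures labelled R28P-30A lay between the other 2 strains. The comparisons share WT, R28P-30B or labelled R28P-30A cultures and are not independent of each other.

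**Figure D3:**
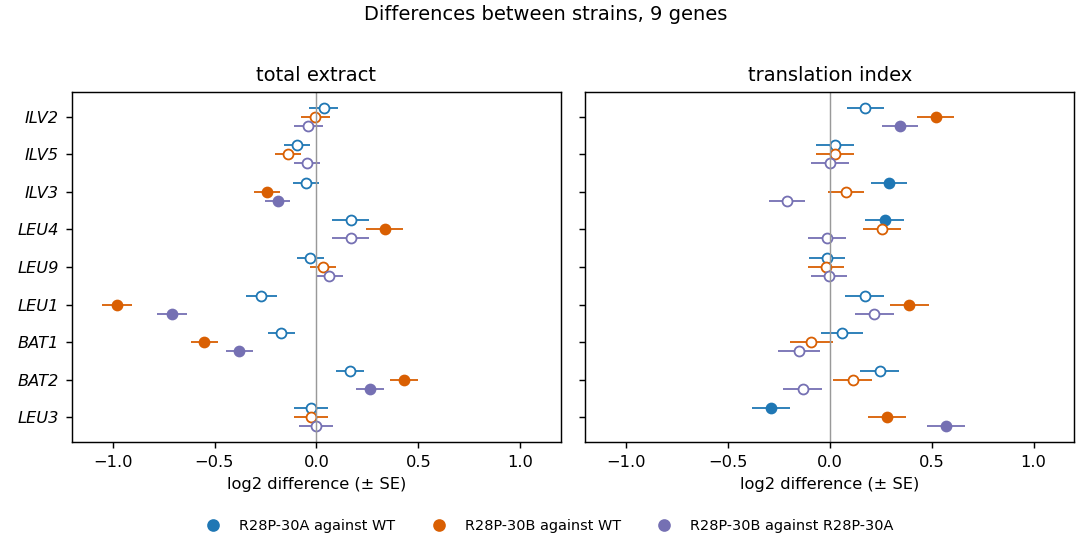
Log2 differences of the 9 genes between strains, with the standard error of limma as bars, in the total extract (left) and in the heavy over light ratio (right); filled points passed an adjusted p under 0.05 and open points did not. In the total extract LEU1 and BAT1 lie to the left (-0.98 and -0.55 for R28P-30B against WT) and BAT2 and LEU4 to the right (0.43 and 0.34), and in the ratio the LEU3 points of the 2 plasmid strains lie on opposite sides of 0 (-0.29 and 0.28).

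The balance of BAT1 and BAT2 turned over in the total extract and heavy fraction of R28P-30B, but not in its light fraction. Per coding length, BAT1 exceeded BAT2 by 1.66 and 1.71 times in the WT total extracts and by 1.43 and 1.245 in those labelled R28P-30A, while in R28P-30B the ratio was 0.781 and 0.930, below 1 in both cultures. In the light fraction it was 2.07 and 1.997 in WT, 1.60 and 1.73 in the libraries labelled R28P-30A and 1.15 and 1.24 in R28P-30B. In the heavy fraction it was 1.36 and 1.40, 1.16 and 0.851, and 0.733 and 0.678 in the same order. The strains WT and R28P-30B did not overlap in any of the 3 fractions. The LEU4 over LEU9 ratio was 1.30 and 1.265 in WT and 1.45 and 1.73 in R28P-30B, with 1.30 and 1.67 in the cultures labelled R28P-30A. BAT1 and BAT2 are 71.7% identical in their coding sequence, yet no window of 50 nt of any member's coding sequence occurred elsewhere in the reference genome, so reads of that length or more can be told apart between these pairs. With 2 cultures a strain, the smallest two-sided p of an exact permutation test is 0.33, and the ratios are given as values.

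**Figure D4:**
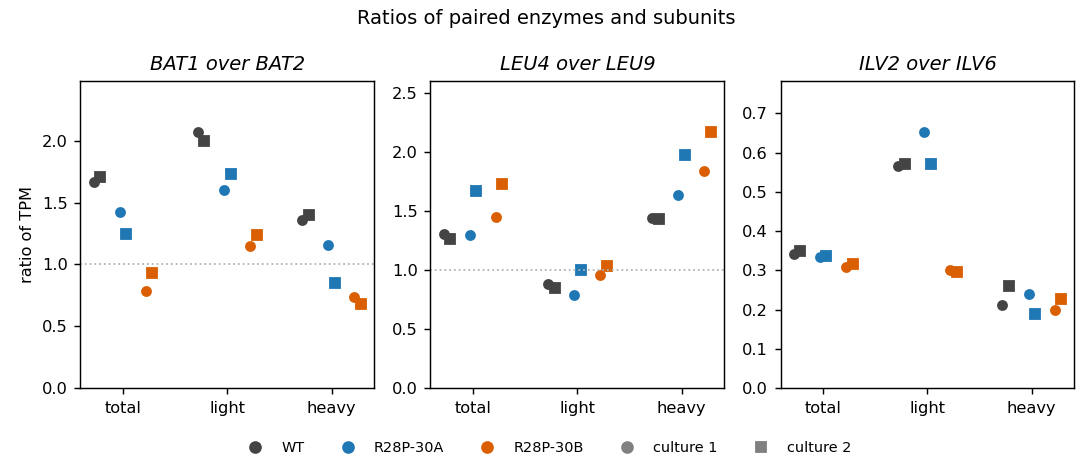
Ratio of TPM of BAT1 over BAT2, LEU4 over LEU9 and ILV2 over ILV6 in each culture, by fraction and strain; the dotted line marks a ratio of 1. BAT1 over BAT2 is 1.66 and 1.71 in the WT total extracts and 0.781 and 0.930 in R28P-30B, and ILV2 over ILV6 in the light fraction is 0.566 and 0.571 in WT against 0.301 and 0.295 in R28P-30B.

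Around the members, the other genes of branched-chain synthesis and the further known targets of Leu3 split in direction. OAC1, the mitochondrial carrier that exports α-isopropylmalate and takes up oxaloacetate, gave 98.7 and 109 TPM in WT, 87.95 and 91.7 in the cultures labelled R28P-30A and 62.2 and 60.7 in R28P-30B. Its log2 difference of R28P-30B to WT was -0.75 (SE 0.071, limma adjusted p = 1.019e-07), next to LEU1 in size and in the same direction. GDH1, which carries the repeat, went the other way, with 518 and 547 TPM in WT and 715 and 742 in R28P-30B (0.45, SE 0.064, limma adjusted p = 1.88e-05). MAE1, the malic enzyme, was lower (-0.29, SE 0.068, limma adjusted p = 0.00375), and ALD5, an aldehyde dehydrogenase, was not called (0.02). ILV1, the threonine deaminase that opens the isoleucine branch, and ILV6, the regulatory subunit of acetolactate synthase, were not called either (0.16 and 0.14).

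Of the 15 carriers of the Leu3 repeat tested other than LEU2, 2 passed the test upwards and 4 downwards from WT to R28P-30B, where 10.7% of all genes were higher and 13.5% lower, with a median log2 difference of -0.13 against -0.05 over all genes. Among the member carriers LEU1 and BAT1 were lower, while ILV2 and ILV5 had differences of -0.01 and -0.14 that were not called. Of the members without the repeat, ILV3 was lower, LEU4 and BAT2 were higher, and LEU3 and LEU9 were not called.

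Uptake, breakdown and general control were taken from lists of known genes. Of 10 genes of branched-chain uptake and its sensor, 2 passed the test upwards and 1 downwards between WT and R28P-30B, where 10.7% of all genes were higher and 13.5% lower. The permease genes BAP3 (53.8 and 60.1 TPM in WT, 90.9 and 108 in R28P-30B, log2 difference 0.79, limma adjusted p = 1.382e-06) and TAT1 (0.21, 0.0281) were the higher. Of 9 genes of breakdown by the Ehrlich pathway, ADH4 was higher (363 and 373 TPM against 634 and 698, log2 difference 0.85, limma adjusted p = 3.416e-09), while ARO9 and ARO10, a transaminase and a decarboxylase, were lower. With counts this small, nothing is read from either list. Of 18 Gcn4-linked genes 11 were higher by limma and the other 7 were not called, against the same 10.7% of all genes, with a median of 0.29. The argininosuccinate synthase gene ARG1 led them with 98.5 and 109 TPM in WT, 144 and 225 in the cultures labelled R28P-30A and 351 and 475 in R28P-30B (1.97, SE 0.138, limma adjusted p = 1.292e-09). ARG3, the ornithine carbamoyltransferase gene, followed with 11.8 and 11.4, 14.45 and 23.1, and 30.9 and 43.2 TPM. For GCN4 itself the log2 difference was 0.08 (SE 0.063, limma adjusted p = 0.393).

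Against WT, the cultures labelled R28P-30A had 2 of these 18 genes higher, where 0.879% of all genes were, among them ARG1 (0.79, limma adjusted p = 0.00511). Among the 10 uptake genes and among the 9 breakdown genes 0 were called by limma, with 3 and 3 at an unadjusted p under 0.05, 0 and 0 by edgeR and 1 and 1 by DESeq2. Replicate 2 of these cultures was above replicate 1 in ARG1 and ARG3 as in LEU4, and the part of that difference between cultures in the LEU4 values was not tested. R28P-30B had 7 of the 18 higher than the cultures labelled R28P-30A, and 2 of 10 uptake and 1 of 9 breakdown genes, where 5.98% of all genes were higher.

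The translation index is the ratio of heavy to light CPM of a culture, and asks whether a message is weighted towards heavy polysomes. Over 5664 genes the WT median was 0.860. Among the members BAT2 had the highest WT index, 2.22 and 2.20, above 94.5% of genes, followed by LEU4 with 1.79 and 1.955. BAT1, ILV2, LEU1 and LEU9 lay between 1.10 and 1.55, ILV3 at 0.927 and 0.911, LEU3 at 0.796 and 0.753, and ILV5, the most abundant, at 0.577 and 0.5895, above 26.9% of genes. Each enzyme pair was split: BAT2 was above BAT1 and LEU4 above LEU9 in all 6 cultures.

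In R28P-30B against WT, 3 of 9 members had a higher index by limma and the other 6 were not called, where 12.4% of genes were called higher and 10.2% lower. The split over all genes was 705 higher and 578 lower. LEU4, among those not called, had an index of 2.12 and 2.36 in R28P-30B against 1.79 and 1.955 in WT (0.256, SE 0.095, limma adjusted p = 0.0607). That was close to the 2.37 and 2.14 of the cultures labelled R28P-30A, where LEU4 was called against WT. ILV2 had the widest change, from 1.30 and 1.32 in WT to 1.81 and 1.95 in R28P-30B (log2 difference 0.52, SE 0.09, limma adjusted p = 0.000835), and kept its call under all 13 alternative fits. Its heavy CPM barely moved, at 419.5 and 427 in WT and 438 and 463 in R28P-30B, while its light CPM was 322 and 324 in WT and 242 and 237 in R28P-30B.

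LEU1 rose in index from 1.18 and 1.33 to 1.555 and 1.73 (0.39, SE 0.096, limma adjusted p = 0.00823), while its CPM was lower than in WT in both fractions. That call was lost without WT replicate 1 (0.30, limma adjusted p = 0.0740) and without R28P-30B replicate 2 (0.31, 0.104). LEU3 rose in index from 0.796 and 0.753 to 0.961 and 0.9215 (0.28, SE 0.092, limma adjusted p = 0.03645), with no overlap, at a total level that did not differ beyond its spread. Its CPM was lower than in WT in both fractions. The heavy values were 119.0 and 115.6 in WT and 105.9 and 105.5 in R28P-30B, and the light values 149.5 and 153.4 against 110.2 and 114.5. DESeq2 did not call LEU3 here. Each of the 4 fits without a WT or R28P-30B culture lost the LEU3 call, with a log2 difference of 0.24 to 0.32 and a limma adjusted p of 0.0608 to 0.227. By the study's own rule, a mean index apart by more than log2 0.5, ILV2 alone among the 9 was counted, as higher, where 4.78% of genes were higher and 4.08% lower.

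In the cultures labelled R28P-30A against WT, limma called LEU4 and ILV3 higher and LEU3 lower, where 5.56% of genes were called higher and 25.3% lower. The all-gene median was shifted by -0.13 on the log2 scale, and centring each culture turned the split from 315 higher and 1432 lower to 862 and 607. LEU3 gave 0.651 and 0.616, below the 0.796 and 0.753 of WT (-0.29, SE 0.092, limma adjusted p = 0.0245), or -0.16 relative to the median gene, and was not called after centring (-0.12, limma adjusted p = 0.330). ILV3 gave 1.11 and 1.14 against 0.927 and 0.911 in WT (0.29, SE 0.088, limma adjusted p = 0.0177), or 0.42 relative to the median gene. LEU4 gave 2.37 and 2.14 against 1.79 and 1.955 in WT (0.27, SE 0.095, limma adjusted p = 0.0396), or 0.40 relative to it. After centring 5 members were called, all higher: LEU1, LEU4, BAT2, ILV2 and ILV3. Without WT replicate 1 or WT replicate 2 none of the 9 was called, and without replicate 2 of the cultures labelled R28P-30A only LEU4 was. LEU4 in turn lost its call without replicate 1 of these cultures (0.195, limma adjusted p = 0.206), where BAT2 gained one (0.365, 0.0154). By the study's rule 0 of 9 were counted, where 1.15% of genes were higher and 12% lower.

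Between the plasmid strains, R28P-30B against the cultures labelled R28P-30A, LEU3 and ILV2 had the higher index in R28P-30B, where 30.7% of genes were called higher and 15.4% lower. The split of 1738 higher and 871 lower turned to 1201 and 1867 after centring. LEU3 had the widest difference among the 9, 0.961 and 0.9215 against 0.651 and 0.616 (0.57, SE 0.092, limma adjusted p = 6.655e-05), and was called under all 12 alternatives, with a log2 difference of 0.39 to 0.61. Its light CPM was 110.2 and 114.5 in R28P-30B and 178 and 168 in the libraries labelled R28P-30A, and its heavy CPM 106 and 105.5 against 116 and 103.5. The light values of LEU3 did not overlap between these strains, and the heavy values did. ILV2 differed by 0.345 (SE 0.09, limma adjusted p = 0.00441) and lost its call after centring (0.16, limma adjusted p = 0.117), where ILV3, BAT1 and BAT2 were called lower. Without R28P-30B replicate 2 the ILV2 difference was 0.29 (limma adjusted p = 0.0610). The study's rule counted LEU3 only, as higher, where 20.5% of genes were higher and 4.52% lower.

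**Figure D5:**
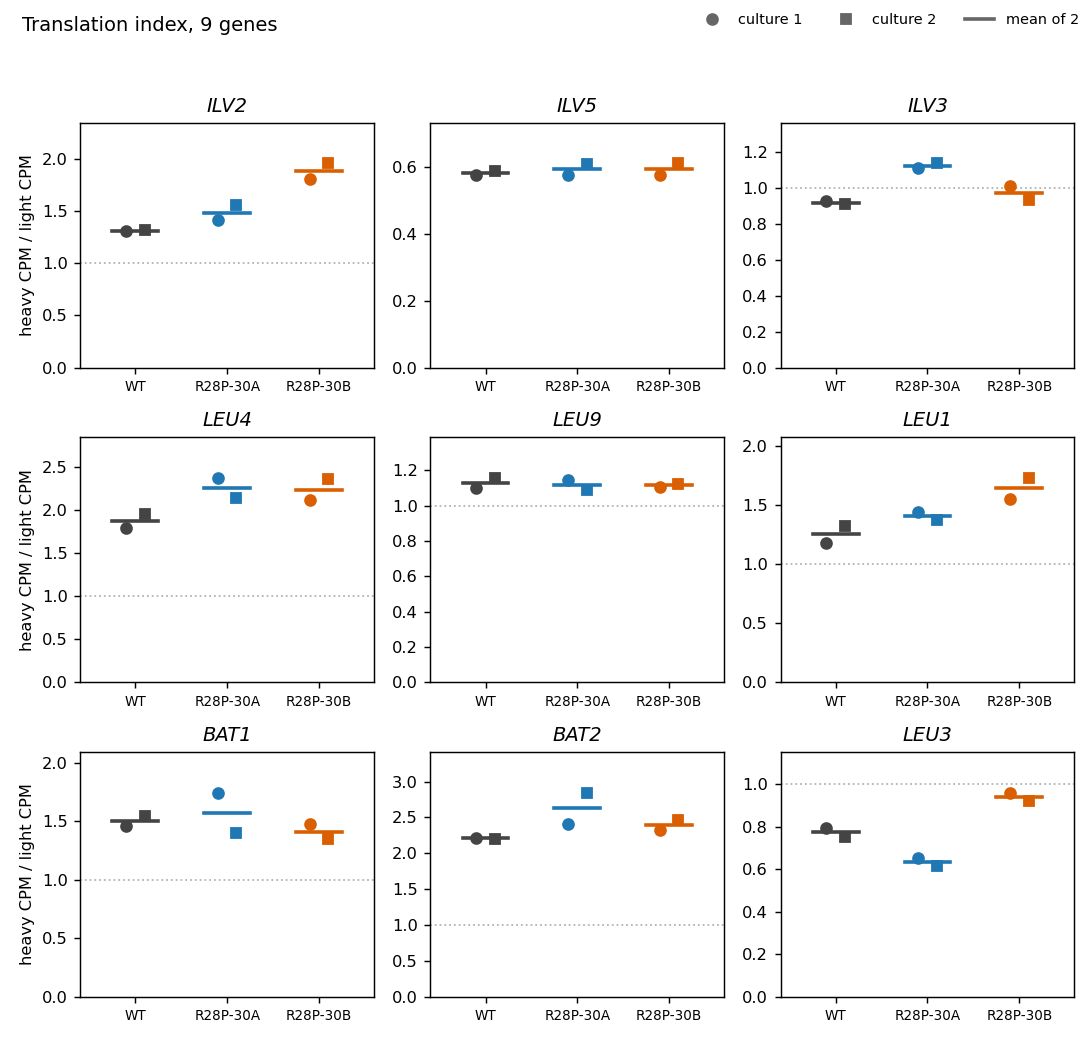
Heavy over light CPM of the 9 genes in each culture, with a bar for the mean of 2 and a dotted line at 1 where it lies in range; each panel starts at 0. LEU3 lies at 0.651 and 0.616 in the cultures labelled R28P-30A, at 0.796 and 0.753 in WT and at 0.961 and 0.9215 in R28P-30B.

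The partner subunit of ILV2 moved otherwise. ILV6 had an index of 3.47 and 2.90 in WT, 3.83 and 4.67 in the cultures labelled R28P-30A and 2.74 and 2.54 in R28P-30B. It was called higher in the cultures labelled R28P-30A than in WT (0.415, SE 0.109, limma adjusted p = 0.00829) and lower in R28P-30B than in those (-0.68, SE 0.109, limma adjusted p = 5.926e-05), and was not called in R28P-30B against WT (-0.27, limma adjusted p = 0.0862). The ILV2 over ILV6 ratio in the light fraction was 0.566 and 0.571 in WT, 0.652 and 0.570 in the libraries labelled R28P-30A and 0.301 and 0.295 in R28P-30B. In the total extract it was 0.341 and 0.3505, 0.334 and 0.336, and 0.308 and 0.316.

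In the lists around the pathway, calls on the index by limma were scattered, and they are read against the shares over all genes, which were 5.56% higher and 25.3% lower in the cultures labelled R28P-30A against WT, 12.4% and 10.2% in R28P-30B against WT, and 30.7% and 15.4% between the plasmid strains. Of the further Leu3 targets, GDH1 was higher in the cultures labelled R28P-30A than in WT (0.41, SE 0.091, limma adjusted p = 0.00297) and OAC1 lower (-0.34, SE 0.096, limma adjusted p = 0.0138). Of the 10 uptake and sensor genes, SSY1, the amino acid sensor of the plasma membrane, was lower in that comparison (-0.32, limma adjusted p = 0.0241), and BAP3 was higher in R28P-30B against WT (0.32, limma adjusted p = 0.0200). Of the 9 breakdown genes, 2 were lower in the first comparison and 3 higher in the second, led by the pyruvate decarboxylase genes PDC6 (0.83, SE 0.239, limma adjusted p = 0.0199) and PDC5 (0.675, limma adjusted p = 0.000629). PDC6 had few reads, 37 and 59 in the heavy libraries of WT and 68 and 111 in those of R28P-30B. Of the 18 Gcn4-linked genes, 3 were higher in the cultures labelled R28P-30A than in WT and 5 in R28P-30B than in WT, with MET6, the methionine synthase gene, at 0.533 and 0.545 in WT and 0.835 and 0.9835 in R28P-30B. Between the plasmid strains, 4 of the uptake genes, 4 of the breakdown genes and 5 of the Gcn4-linked genes were higher in R28P-30B, and 3 of the last were lower, and nothing particular to these lists is read from that. In the cultures labelled R28P-30A against WT, where the median gene lay at -0.13, the count of Gcn4-linked genes called depended on the tool, at 3 by limma and 9 by both edgeR and DESeq2. Between the plasmid strains it was 8 by limma, 11 by edgeR and 10 by DESeq2.

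Likeness was measured as Pearson's r of log2(CPM + 0.1) over the 18 libraries, among 5924 genes above 1 CPM, as a description over libraries that share cultures. Most like LEU2 were HXT6 (0.897), SUP53 (0.896), CRG1 (0.886), HXT4 (0.870) and YOR161W-B (0.866). In the total extracts HXT6, a hexose transporter gene, gave 4.42 and 4.45 CPM in WT, 7.52 and 7.52 in the libraries labelled R28P-30A and 17.7 and 23.1 in R28P-30B. Whether HXT6 shares sequence with other genes was not checked, so these reads may not be its own alone. Most like LEU1 were HO (0.951), TEL2 (0.945), HMS2 (0.930), FMP45 (0.923) and SPC105 (0.915). HO, the mating type endonuclease gene, gave 263 and 271.5 CPM in WT, 225 and 203 in the libraries labelled R28P-30A and 131 and 117 in R28P-30B. Among the members BAT1 was the most like LEU1 (0.882), and LEU1 and ILV3 had the lowest r with LEU2 (-0.78 and -0.78). LEU2 varied mainly by strain, in the order on which the set was chosen, with WT near the added 0.1 CPM. Every r with LEU2 therefore largely restates that order, and no link to LEU2 is read from it. Mean ILV3 CPM ran opposite to that order in total extracts and heavy fractions. In light fractions it did not, at 611.8 for WT, 515.9 for R28P-30B and 478.3 for the R28P-30A label.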

How the data were processed

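RNA sequencing of 18 libraries (3 strains, 3 fractions, 2 cultures) was re-analysed and grouped by the labels. The members and lists were chosen with earlier results of these data known. The authors aligned reads to R64 with STAR, kept all valid positions of a read, counted them with featureCounts and deposited CPM for 7126 genes. In each library 100% of the CPM values were whole reads within 0.05, so reads were recovered (17373839 to 31525927 a library). Deposited TPM was not used, because long genes were far too low in it, and TPM was recomputed from reads and coding length (6013 genes). Values after ± are SDs between 2 cultures, SEs are those of limma, and only the limit given for a LEU2 count of 0 covers counting error. The labels do not say whether cultures of a strain came from separate colonies. The study calls its samples biologically independent and reports that colonies were picked at random to start the cultures. The p-values measure the spread between these cultures.

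Total extracts were tested by limma 3.58.1 (R 4.3.3) on log2(TPM + 1), over genes above a mean of 1 TPM, and the index on log2((heavy CPM + 0.1)/(light CPM + 0.1)), over genes above 1 TPM in WT and above 0 CPM in all polysome libraries, with the mean log2 CPM as trend. The 3 strains shared 1 spread. A gene counted as called when its p, adjusted by Benjamini and Hochberg over all genes, was under 0.05. Named genes were all members, every gene of the synthesis and Leu3 lists, and up to 2 per comparison from the other lists. The values of 1 listed gene are not reported here. Alternatives were other pseudocounts, no filter, centring, the replicate number as a block, edgeR 4.0.16, DESeq2 1.42.0 (both on recovered reads) and leaving out each culture. The scripts were tested on simulated reads. Motifs came from the R64 reference. Differences between replicates correlated between strains at 0.117 to 0.157 in total extracts and -0.167 to 0.149 in the index, across genes. With 2 numbers a strain and no shared batch in the labels, the numbers were not taken to pair cultures, and the block is given where it changes a call or count.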

Additional observations from a re-analysis of the deposited data

Results flagged for a closer look

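These 8 differences in heavy over light ratio between strains passed limma's test of the difference itself, and are marked for that reason alone. In the cultures labelled R28P-30A against WT they were LEU3 (log2 difference -0.29), LEU4 (0.27) and ILV3 (0.29). In R28P-30B against WT they were LEU1 (0.39), LEU3 (0.28) and ILV2 (0.52). Between R28P-30B and the cultures labelled R28P-30A they were LEU3 (0.57) and ILV2 (0.345). Over all genes, 5.56% were called higher and 25.3% lower in the first comparison, 12.4% and 10.2% in the second, and 30.7% and 15.4% in the third. The count of 8 is therefore not read as a trait of the members. The ILV2 difference to WT and the LEU3 difference between the plasmid strains were called under all alternatives tried, 13 and 12 in number, and the other 6 lost their call under at least 1. Groups of 2 cultures are too small for a test of outlying samples.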

How the results depend on the processing

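For single members other than LEU2, 604 of the values under an alternative kept their direction and side of the threshold where called, 40 lost a call, 31 gained one, and none of the called ones turned direction. In total extracts labelled R28P-30A against WT, limma called 61 genes, with 6 without a filter, 1 after centring, 126 with the replicate block and 23 by edgeR, and 1 to 223 with a culture left out (lowest without WT replicate 2, highest without replicate 1 of those labelled R28P-30A). The member count of 0 became 1 with the block and by DESeq2, and was 0 to 1 with a culture left out. R28P-30B against WT gave 1377 genes, and 735 to 1524 with a culture left out (735 once WT replicate 2 was dropped, 877 and 846 when R28P-30B replicate 1 or 2 was), with 4 to 5 members. R28P-30B against those labelled R28P-30A gave 695 genes, 1074 with the block, and 358 to 676 with a culture left out (lowest without R28P-30B replicate 2), with 4 members, or 2 to 4 then (2 without replicate 1 of those labelled R28P-30A). For the index, the cultures labelled R28P-30A against WT gave 1747 genes, 1164 by DESeq2, 745 by the study's rule and 1045 to 1689 with a culture left out. Its 3 members became 5 after centring, 5 by edgeR, 5 by DESeq2, 0 by the rule and 0 to 3 with a culture left out. R28P-30B against WT gave 1283 genes, 502 by the rule and 384 to 1474 with a culture left out (384 once WT replicate 2 was dropped, 835 and 460 when R28P-30B replicate 1 or 2 was), and its 3 members became 1 by the rule and 1 to 4 with a culture left out. Between the plasmid strains the index gave 2609 genes, 1415 by the rule and 1959 to 2580 with a culture left out, and its 2 members became 4 after centring, by edgeR and by DESeq2, 1 by the rule and 1 to 3 with a culture left out. The causes were not tested. In 3 fits chosen after seeing the data, leaving the cultures labelled R28P-30A out gave 1522 genes and 5 members for total extracts and 1485 genes and 4 members for the index of R28P-30B against WT, and exchanging the WT replicate numbers in the block gave 1879 genes and 4 members for the index of the cultures labelled R28P-30A. The replicate block moved no other count by over 1.5 times. It gave LEU1 a call in total extracts labelled R28P-30A against WT (-0.27, limma adjusted p = 0.0378), cost LEU4 its index call there (0.27, 0.05001), and changed no other member call. With a culture left out, the lone culture is assumed to vary like the others.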
